A study of Homo sapiens with 17 samples.

Results

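The cadherin superfamily beyond the E-, N- and P-cadherin genes was examined in A549 and H2122 cells, both from human lung adenocarcinomas, after expression of the kinase LKB1 (gene STK11). The members were all genes whose single symbol in the platform annotation is CDH, PCDH, FAT, DSG, DSC, DCHS or CELSR followed by a number (FAT1 to FAT4, DSG1 to DSG4, DSC1 to DSC3, DCHS1, DCHS2 and CELSR1 to CELSR3), with CDH1, CDH2 and CDH3 left out. This gave 45 genes of 17958 with a symbol, each read by 1 probe set. They comprised 14 classical cadherins, 4 other CDH genes (CDH16, CDH17, CDH23, CDH26), 11 non-clustered protocadherins, 7 desmosomal cadherins, 6 FAT and Dachsous genes and 3 CELSR genes.

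Cadherins are transmembrane proteins with repeated extracellular domains that bind calcium and, in most members, the cadherins of the neighbouring cell. Classical cadherins anchor actin through catenins, and desmosomal cadherins (desmogleins and desmocollins) anchor keratin filaments through plakoglobin and plakophilins. FAT and Dachsous proteins are very large ligand-receptor partners in planar polarity and Hippo signalling, CELSR proteins act with Frizzled and VANGL in planar polarity, and many protocadherins are best known from neurons. LKB1 is a tumour suppressor kinase that is often lost in lung adenocarcinoma, and it activates AMPK and related kinases, among them the SIK kinases that restrain CREB-driven transcription.

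A549 and H2122 lack functional LKB1 of their own. Both carried a pBABE retrovirus that was stably introduced and selected for with 1 µg/mL puromycin, and cells in log-phase growth in 5% serum were harvested. The construct was the empty vector (pBABE), kinase-dead LKB1 (K78I) or wild-type LKB1 (LKB1). A549 had 3 arrays of each construct. H2122 had 2 pBABE, 3 K78I and 3 LKB1 arrays, 17 arrays in all. No label says that replicates came from separate infections or cultures, and the p-values below therefore rest on array-to-array spread alone, which may be technical. Values are log2 expression levels, and the array medians lay between 5.62 and 5.73. A level of one gene is not compared with that of another, since probe sets differ in brightness.

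The labels and the arrays disagreed in places. On 3 arrays of H2122, titled pBABE replicate 2, LKB1 replicate 3 and K78I replicate 3, title and source name point to different constructs. Titles were used, and H2122 results are also given without these arrays. Each H2122 group then loses an array, and pBABE replicate 1 is the only pBABE array left. A call lost in that setting may therefore reflect fewer arrays as well as the labels. STK11 itself was 6.33 and 6.22 on the H2122 pBABE arrays. On the K78I arrays it was 11.26 to 11.31, and on the LKB1 arrays 11.20 to 11.35. STK11 went with the titles of pBABE replicate 2 (6.22, source name LKB1) and K78I replicate 3 (11.26, source name pBABE). STK11 cannot tell K78I from LKB1, and so does not settle LKB1 replicate 3 (source name K78I). In A549 it was 6.88, 7.38 and 10.52 on the pBABE arrays, 10.54, 7.14 and 10.42 on the K78I arrays and 9.42, 10.23 and 9.62 on the LKB1 arrays. The arrays labelled A549 pBABE replicate 3 and A549 K78I replicate 2 therefore went against their labels, and both belong to the control side of the LKB1 comparison. In addition, 3 control arrays (A549 pBABE replicate 1, A549 K78I replicate 2 and H2122 pBABE replicate 2) were known from earlier results on these data to be low in cell cycle genes. The mean over MKI67, TOP2A, CCNB1, CDK1 and BUB1 was 9.65, 9.42 and 8.41 on these 3 arrays, 9.89 to 10.30 on the other control arrays and 9.79 to 10.22 on the LKB1 arrays.

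Keratin and EPCAM markers of epithelium had a mean over 5 genes of 9.67 to 10.1 in A549 and 11.3 to 11.6 in H2122. In A549, KRT7, KRT8 and KRT18 lay between 11.5 and 13.1. EPCAM was 5.89 to 7.65 and KRT19 4.19 to 5.48 in A549, against 11.1 to 11.4 and 10.2 to 11.2 in H2122. With LKB1, 0 of 5 were called in either line. Mean levels of fibroblast markers (8 genes, 3.66 to 3.95) and endothelial markers (6 genes, 3.56 to 4.06) were low on every array. Among them PDGFRA rose in A549 and PECAM1 fell in H2122, and their part in the results was not tested.

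The levels of the 45 genes were mostly low: 27 lay in the dimmest 30% of all genes by mean over all arrays (below 4.83), a range that may lie near background, and 18 did not. No detection calls were used. Of the 15 members called below in at least 1 line, 5 were in that dim range: CDH6, CDH23 and FAT3 (called in A549) and CDH8 and DCHS2 (called in H2122). A mean over all arrays can also hide 1 dim line: FAT4, PCDH10, PCDH17 and CDH17 were above it through A549, while their H2122 control means were 3.84, 4.43, 4.58 and 3.54. For these genes a fall in H2122 could hardly have been measured, and the size of a rise there is uncertain.

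The promoters of 4 called members are shown because CREB, which acts downstream of the SIK kinases, binds the 8-base element TGACGTCA. Each run is the 250 bases upstream of the annotated start, 5′ to 3′ on the gene's strand, from RefSeq (GRCh38.p14). Capitals mark TGACGTCA. FAT1 (chr4:186726697-186726946, minus strand) is the called member that holds it, FAT2 (chr5:151591332-151591581, minus strand) had the highest rise in H2122, PCDH17 (chr13:57631494-57631743, plus strand) fell in A549, and DSG3 (chr18:31447491-31447740, plus strand) rose in H2122.
FAT1: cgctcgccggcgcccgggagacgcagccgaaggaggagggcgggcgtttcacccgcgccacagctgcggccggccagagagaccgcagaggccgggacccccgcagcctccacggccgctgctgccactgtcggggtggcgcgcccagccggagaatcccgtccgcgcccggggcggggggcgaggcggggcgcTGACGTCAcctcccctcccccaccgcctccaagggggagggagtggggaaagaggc
FAT2: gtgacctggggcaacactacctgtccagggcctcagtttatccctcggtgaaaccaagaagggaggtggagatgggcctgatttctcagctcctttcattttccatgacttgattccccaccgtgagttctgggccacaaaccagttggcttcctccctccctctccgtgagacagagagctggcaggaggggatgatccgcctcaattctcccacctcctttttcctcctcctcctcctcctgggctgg
PCDH17: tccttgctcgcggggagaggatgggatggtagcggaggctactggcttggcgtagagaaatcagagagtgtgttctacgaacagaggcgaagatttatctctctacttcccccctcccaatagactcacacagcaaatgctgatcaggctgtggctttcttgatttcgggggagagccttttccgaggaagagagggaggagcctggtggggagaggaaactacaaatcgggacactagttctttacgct
DSG3: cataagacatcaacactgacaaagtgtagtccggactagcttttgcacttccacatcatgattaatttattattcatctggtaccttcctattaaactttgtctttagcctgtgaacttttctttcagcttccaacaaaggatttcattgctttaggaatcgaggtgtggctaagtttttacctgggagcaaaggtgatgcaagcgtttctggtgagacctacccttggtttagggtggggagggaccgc
These windows differ in composition: GC content was 78% in FAT1, 56.8% in FAT2, 52.8% in PCDH17 and 42.8% in DSG3, against a median of 58% over all 35116 windows. FAT1 has 32 CpG sites in the window shown, PCDH17 has 10, and FAT2 and DSG3 have 4 each, against a median of 11. Windows existed for 30 of the 45 members and for 9 of the 15 called ones. TGACGTCA, which reads the same on both strands, was in 1.65% of all windows and in 1 of the 9 called members, FAT1. The 9 members have 13 windows, 2 of them of FAT1, so a share of members and a share of windows are not the same measure. The shorter TGACG, searched on both strands and contained in every TGACGTCA, was in 21.2% of all windows and in 4 of the 9: CDH23, CDH8, DSG2 and FAT1. A match describes letters, not binding.

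In A549, LKB1 moved single members of most subfamilies, up or down, and called no desmosomal cadherin. FAT3, CDH6, CDH23, CELSR1 and CELSR2 rose, while CDH17, PCDH17, PCDH10 and FAT4 fell. That is 9 of 45 members at an adjusted p under 0.05 (limma, Benjamini-Hochberg adjustment over 17958 genes), LKB1 against the mean of the pBABE and K78I groups, or 20% against 8.44% of all genes. Of these, 5 rose (5.49% of all genes) and 4 fell (2.95% of all genes). By subfamily, 2 of 6 FAT and Dachsous genes were called, 2 of 11 protocadherins, 1 of 14 classical cadherins, 2 of 4 other CDH genes, 2 of 3 CELSR genes and 0 of 7 desmosomal cadherins. The desmosomal cadherins ranged from -0.38 to 0.14, and the 36 members not called from -0.38 to 0.47. The median difference was -0.02 over the members, as it was over all genes.

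In H2122 the called members all rose, and 4 of the 7 were giant FAT or Dachsous cadherins. FAT2, FAT4, FAT1, DCHS2, CDH8, DSG2 and DSG3 were called, 15.6% of members against 7.28% of all genes, with 7 higher (4.99% of all genes) and 0 lower (2.29% of all genes). By subfamily this was 4 of 6 FAT and Dachsous genes, 2 of 7 desmosomal cadherins, 1 of 14 classical cadherins and 0 of 18 in the protocadherins (11), other CDH genes (4) and CELSR genes (3). The 38 not called ranged from -0.29 to 0.75, and the median difference was 0.04 over the members and -0.04 over all genes. Among subfamilies with no call there, the CELSR genes ranged from 0.084 to 0.48, the other CDH genes from -0.12 to 0.065 and the protocadherins from -0.20 to 0.75. Without the 3 arrays with conflicting labels 1 member, FAT2, was called.

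**Figure D1:**
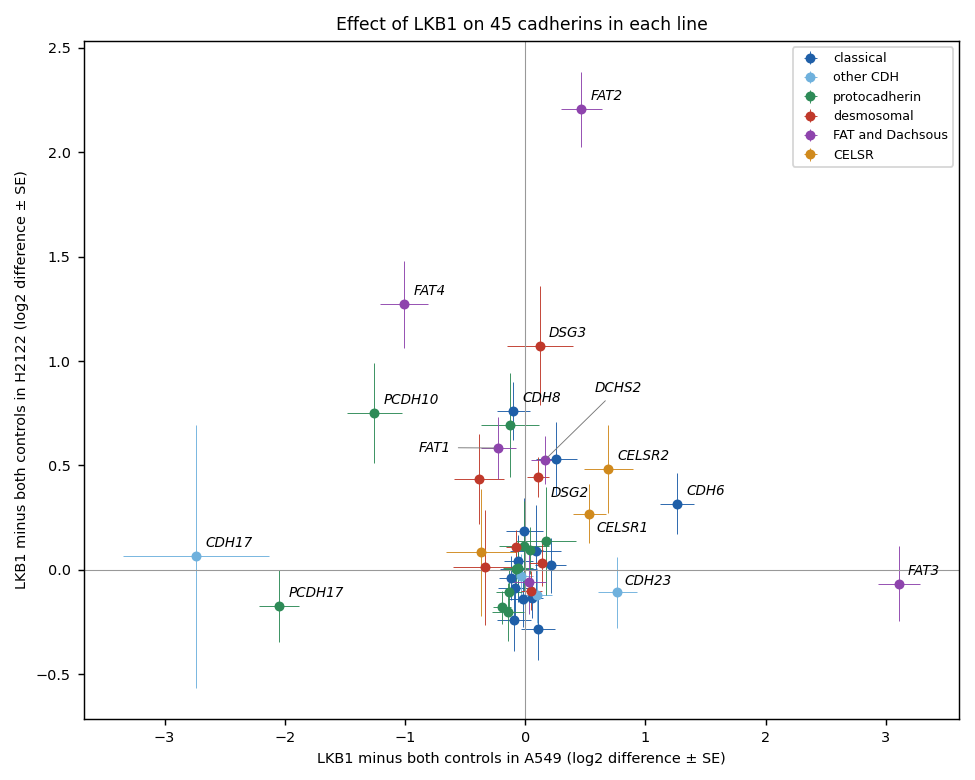
Effect of LKB1 on each of the 45 members in A549 (horizontal axis) and H2122 (vertical axis), as the log2 difference between LKB1 and the mean of both control groups. Bars are 1 SE of the limma fit, colours mark subfamilies, and members called in at least 1 line are labelled. FAT3 lies far right at 3.11 with -0.07 in H2122, FAT2 lies at the top at 2.21, and FAT4 lies upper left at -1.01 and 1.27.

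FAT3, a giant cadherin known from neurons, had the highest rise in A549. Its log2 levels there were 3.72, 3.56 and 4.45 with pBABE, 4.15, 3.87 and 4.40 with K78I, and 6.97, 7.15 and 7.27 with LKB1. Every LKB1 array stood above every control array with a wide gap. The difference was 3.11 ± 0.17 (SE; 8.61-fold; limma adjusted p = 9.15e-08), and 3.17 without the 2 arrays whose STK11 went against their label. In H2122 FAT3 was 3.67 and 3.31 with pBABE, 3.68, 3.40 and 3.37 with K78I, and 3.48, 3.38 and 3.40 with LKB1, so the groups overlapped at a low level. The H2122 difference was -0.07 ± 0.18 (adjusted p = 0.914), and the effect in A549 exceeded that in H2122 by 3.17 (adjusted p = 9.08e-06). FAT3's control levels in A549 lie in the dim range and its LKB1 levels above it, so the size of the rise is uncertain.

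FAT2, a giant cadherin of epithelial cells, rose in H2122. Levels were 6.21 and 5.17 with pBABE, 6.96, 6.60 and 6.83 with K78I, and 8.37, 8.61 and 8.38 with LKB1. All LKB1 arrays were above all controls, and the K78I arrays were above both pBABE arrays. The rise was 2.21 ± 0.18 (4.61-fold; adjusted p = 4.56e-06) against both controls, 1.65 against K78I alone and 2.76 against pBABE alone. Without the 3 arrays with conflicting labels it was 1.99 (adjusted p = 1.64e-04), and with those arrays grouped by source name it was 0.47 and not called (adjusted p = 0.837). In A549 FAT2 was 3.94, 4.23 and 4.02 with pBABE, 4.02, 3.79 and 3.95 with K78I and 4.33, 4.61 and 4.43 with LKB1. These groups did not overlap, but the difference of 0.47 did not pass the test (adjusted p = 0.119). The difference between lines was -1.74 (adjusted p = 0.00139).

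FAT4, the receptor partner of Dachsous in planar polarity and Hippo signalling, was the 1 member called in both lines, in opposite directions. In A549 its levels were 7.22, 7.60 and 6.93 with pBABE, 7.35, 7.89 and 7.15 with K78I, and 6.54, 6.19 and 6.32 with LKB1. In H2122 they were 3.69 and 3.76 with pBABE, 3.93, 4.19 and 3.77 with K78I, and 4.65, 5.48 and 5.22 with LKB1. LKB1 arrays were the lowest in A549 and the highest in H2122, with no overlap in either line. FAT4 fell by 1.01 ± 0.20 in A549 (adjusted p = 0.00513) and rose by 1.27 ± 0.21 in H2122 (adjusted p = 0.00136). The effects differed by -2.28 (adjusted p = 5.58e-04). Without the arrays with conflicting labels the H2122 rise was 1.19 and no longer passed (adjusted p = 0.0557), while the difference between lines did (-2.20, adjusted p = 0.0174). Grouped by source name, neither line passed (A549 adjusted p = 0.0911, H2122 0.54 with adjusted p = 0.562). No A549 array was regrouped, and the A549 difference stayed at -1.01. Its SE, which rests on a spread shared by both lines, grew to 0.33. The H2122 controls are dim, so the size of the rise is uncertain.

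FAT1, the FAT member most widely expressed in epithelia, was 10.55 and 9.72 with pBABE in H2122, 10.61, 10.40 and 10.34 with K78I, and 10.90, 10.79 and 10.94 with LKB1. The groups did not overlap, though pBABE replicate 2 was far below the other controls. The rise was 0.58 ± 0.15 (adjusted p = 0.0248). It no longer passed without the conflicting arrays (0.32, adjusted p = 0.266), and without any 1 of the 3 LKB1 arrays or of K78I replicates 2 and 3 the adjusted p was 0.0504 to 0.108. In A549 FAT1 lay between 10.79 and 11.05 in controls and was 10.79, 10.59 and 10.69 with LKB1. The difference between lines was -0.81 (adjusted p = 0.0431), which failed without any 1 of 14 of the 17 arrays (adjusted p = 0.0502 to 0.118).

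DCHS2, a relative of the FAT ligand Dachsous, rose in H2122 from a dim level. It was 3.77 and 3.43 with pBABE, 3.56, 3.39 and 3.39 with K78I, and 3.79, 4.25 and 4.11 with LKB1. The lowest LKB1 array barely exceeded the highest control. The rise was 0.53 ± 0.12 (adjusted p = 0.0111). It was not called without LKB1 replicate 2 (adjusted p = 0.0762) or 3 (adjusted p = 0.0627), nor without the conflicting arrays (0.40, adjusted p = 0.223).

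**Figure D2:**
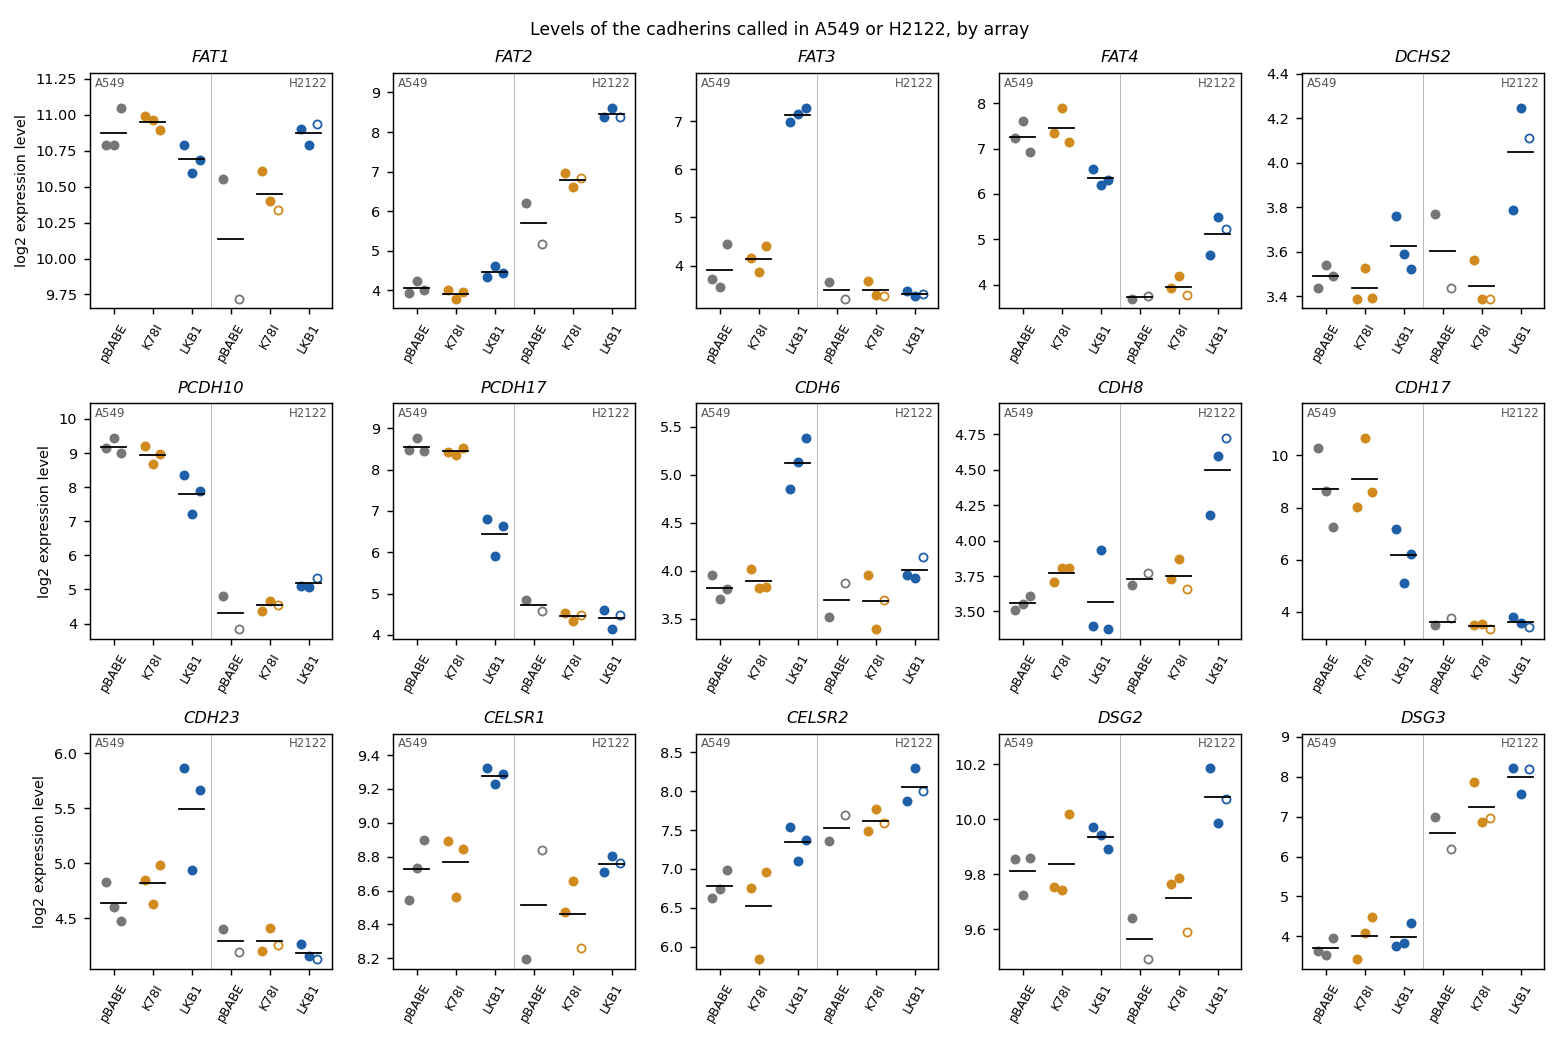
Log2 expression level on every array (points) of the 15 members called in at least 1 line, by line and construct, with a short line at each group's mean and open points for the 3 arrays with conflicting labels. FAT3 separates in A549, FAT2 in H2122, and FAT4 moves down in A549 and up in H2122.

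Among the protocadherins, 2 fell in A549. PCDH17, a protocadherin of neural circuits, was 8.47, 8.76 and 8.44 with pBABE, 8.43, 8.34 and 8.53 with K78I, and 6.79, 5.92 and 6.64 with LKB1. Controls were tight and every LKB1 array lay well below them. It fell by 2.05 ± 0.17 (4.13-fold; adjusted p = 3.01e-06). In H2122 it was low throughout, between 4.33 and 4.84 in controls and between 4.14 and 4.60 with LKB1, and the effects differed by -1.87 (adjusted p = 5.94e-04). From that dim level a fall as large as in A549 could not have been seen in H2122.

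PCDH10, a protocadherin known as a target of promoter methylation in carcinomas, was 9.14, 9.44 and 8.99 with pBABE in A549, 9.19, 8.69 and 8.97 with K78I, and 8.35, 7.21 and 7.88 with LKB1. The groups did not overlap, and the LKB1 arrays were spread more widely than the controls. It fell by 1.26 ± 0.23 (2.39-fold; adjusted p = 0.00279). In H2122 it was 4.80 and 3.84 with pBABE, 4.38, 4.67 and 4.56 with K78I, and 5.11, 5.08 and 5.34 with LKB1. All LKB1 arrays were higher there, but the difference of 0.75 missed the threshold (adjusted p = 0.0776). The effects differed by -2.01 (adjusted p = 0.00349), or -1.69 without the conflicting arrays (adjusted p = 0.0453).

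Of the classical cadherins, CDH6, known from kidney development, rose in A549. It was 3.96, 3.70 and 3.81 with pBABE, 4.02, 3.82 and 3.84 with K78I, and 4.85, 5.13 and 5.38 with LKB1. The groups were clearly apart, with controls in the dim range. The rise was 1.26 ± 0.14 (2.40-fold; adjusted p = 5.05e-05). In H2122 the difference was 0.32 (adjusted p = 0.244). The effects differed by 0.94 (adjusted p = 0.0171), which was not called without A549 LKB1 replicate 3 (adjusted p = 0.0666), H2122 LKB1 replicate 1 (0.0523) or H2122 LKB1 replicate 2 (0.0504), nor without the conflicting arrays (0.107).

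CDH8, a classical type II cadherin of the brain, was 3.69 and 3.77 with pBABE in H2122, 3.73, 3.87 and 3.66 with K78I, and 4.18, 4.60 and 4.72 with LKB1. Every LKB1 array was above every control, all at dim levels. The rise was 0.76 ± 0.14 (adjusted p = 0.00313), and 0.65 without the conflicting arrays (adjusted p = 0.0941). In A549 it lay between 3.51 and 3.81 in controls and between 3.38 and 3.93 with LKB1. The effects differed by -0.86 (adjusted p = 0.0231), a call lost without the conflicting arrays (-0.75, adjusted p = 0.183) or without A549 LKB1 replicate 1 or 3 or H2122 LKB1 replicate 2 or 3 (adjusted p = 0.067 to 0.0877).

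CDH17, the liver-intestine cadherin, was 10.27, 8.65 and 7.26 with pBABE in A549, 8.01, 10.66 and 8.58 with K78I, and 7.18, 5.12 and 6.20 with LKB1. The groups did not overlap, but control levels were widely spread and the 2 highest came from the 2 A549 arrays low in cell cycle genes. It fell by 2.74 ± 0.60 (6.67-fold; adjusted p = 0.0106), and by 1.96 without the arrays low in cell cycle genes (adjusted p = 0.00781). The call was lost without LKB1 replicate 2 (-2.22, adjusted p = 0.0726) or LKB1 replicate 3 (adjusted p = 0.0505). In H2122 it lay between 3.34 and 3.81 on every array, and the difference of effects, -2.80, did not pass (adjusted p = 0.109).

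CDH23, a component of hair-cell tip links, was 4.83, 4.60 and 4.48 with pBABE in A549, 4.84, 4.63 and 4.98 with K78I, and 5.86, 4.94 and 5.67 with LKB1. LKB1 replicate 2 overlapped the controls. The rise was 0.77 ± 0.16 (adjusted p = 0.00835), and it was not called without LKB1 replicate 1 (adjusted p = 0.0708) or 3 (adjusted p = 0.0673). The difference from H2122 was 0.87 (adjusted p = 0.0569).

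CELSR1 and CELSR2, which act with Frizzled and VANGL in planar polarity, rose modestly in A549. CELSR1 was 8.55, 8.74 and 8.90 with pBABE, 8.89, 8.56 and 8.85 with K78I, and 9.32, 9.23 and 9.29 with LKB1, a rise of 0.53 ± 0.14 (adjusted p = 0.0248). CELSR2 was 6.63, 6.74 and 6.98 with pBABE, 6.76, 5.84 and 6.96 with K78I, and 7.54, 7.11 and 7.38 with LKB1, a rise of 0.69 ± 0.20 (adjusted p = 0.0467). For both, every LKB1 array was above every control, and K78I replicate 2 was the low control of CELSR2. The CELSR1 call was lost without pBABE replicate 1 or any 1 LKB1 array of A549 (adjusted p = 0.056 to 0.103). The CELSR2 call was lost without any 1 of 11 arrays (A549 pBABE replicates 1 and 2, and all LKB1 arrays of both lines and K78I arrays of H2122; adjusted p = 0.0535 to 0.205), without the conflicting arrays (0.0898) and with the replicate number as a block (0.0621). Leaving out H2122 arrays kept the A549 rise of CELSR2 at 0.69, so those losses came through the spread shared by both lines. The effects in H2122 were 0.27 for CELSR1 and 0.48 for CELSR2, neither called there.

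The desmosomal cadherins lie side by side in the genome, in the order DSC3, DSC2, DSC1, DSG1, DSG4, DSG3, DSG2 of neighbouring protein-coding genes in RefSeq. DSG2, the desmoglein of simple epithelia, was 9.64 and 9.49 with pBABE in H2122, 9.76, 9.79 and 9.59 with K78I, and 10.18, 9.99 and 10.08 with LKB1. The shift was small and without overlap, a rise of 0.44 ± 0.10 (adjusted p = 0.00944). It was not called without LKB1 replicate 1 (adjusted p = 0.0627) or without the conflicting arrays (0.38, adjusted p = 0.159). Its neighbour DSG3, the desmoglein of stratified epithelium, was 6.99 and 6.19 with pBABE, 7.88, 6.86 and 6.97 with K78I, and 8.21, 7.56 and 8.19 with LKB1. K78I replicate 1 was above LKB1 replicate 2, so the groups overlapped. The rise was 1.07 ± 0.29 (2.11-fold; adjusted p = 0.032). The call was lost without H2122 LKB1 replicate 1 or 3, pBABE replicate 2 or K78I replicate 2 or 3 (adjusted p = 0.068 to 0.15), without the conflicting arrays (0.70, adjusted p = 0.414) and without the 3 arrays low in cell cycle genes (0.87, adjusted p = 0.0915). In A549 DSG3 lay between 3.43 and 4.49 on every array. The difference between lines, -0.95, did not pass (adjusted p = 0.258).

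Among markers of squamous or basal epithelium, only KRT5 was called along with DSG3 in H2122. Of 6 listed, 4 were measured (KRT5, KRT14, SOX2 and DSG3 itself), and 2 were called higher, DSG3 and KRT5, a basal keratin (2.08 ± 0.35, adjusted p = 0.00164). KRT14 (0.23) and SOX2 (-0.12) were not called. The mean over these 4 genes was 6.05 to 6.51 on pBABE arrays, 6.52 to 7.04 on K78I arrays and 6.94 to 7.66 on LKB1 arrays. More cells of a type and more RNA per cell cannot be told apart in such samples, and the part of this in the DSG3 result was not tested.

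The mean of the effects in both lines called 11 of 45, against 13.6% of all genes. Such a mean can rest on 1 line, as for FAT3 (3.11 in A549 and -0.07 in H2122). The 2 not called in either line alone were CDH24, a classical type II cadherin (0.40 ± 0.12, adjusted p = 0.041), and PCDH8, an activity-regulated protocadherin (-0.19 ± 0.05, adjusted p = 0.0343). CDH24 was 6.36 to 7.26 in A549 controls and 7.11 to 7.21 with LKB1, and 7.06 to 7.89 in H2122 controls against a mean of 7.90 ± 0.11 (SD, n = 3) with LKB1, so its groups overlapped in both lines. PCDH8 lay between 3.69 and 4.21 on every array, at a dim level. Leaving out 1 array ended the CDH24 call for 12 of the 17 arrays (adjusted p = 0.0502 to 0.101) and the PCDH8 call for 8 (0.0526 to 0.109), and both were lost without the conflicting arrays (0.146 and 0.138). The other 9 had been called in 1 line. Altogether 17 members were called in an LKB1 contrast and 28 in none.

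Counted without a test, members whose LKB1 arrays all stood above or below all controls in A549 were 5 above (CELSR1, CELSR2, CDH6, FAT2 and FAT3; 8.46% of all genes) and 6 below (CDH17, FAT1, FAT4, PCDH8, PCDH10 and PCDH17; 6.65% of all genes). In H2122 they were 9 above (8.54% of all genes), CELSR2, DCHS2, FAT1, FAT2, FAT4, CDH8, DSC2, DSG2 and PCDH10, and 0 below (8.82% of all genes). In A549 FAT1 was near a tie. Its highest LKB1 level there was 10.7886 and its lowest control level 10.7889.

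Effects that differed between the lines were tested directly. The effect of LKB1 differed for 8 of 45 members, against 3.6% of all genes. It was higher in A549 for 2, FAT3 and CDH6 (1.63% of all genes), and lower in A549 for 6, FAT4, PCDH17, FAT2, PCDH10, CDH8 and FAT1 (1.98% of all genes). For PCDH17, dim in H2122, a fall as large as in A549 could not have been seen there. The count was 5 without A549 LKB1 replicate 3, 5 without H2122 LKB1 replicate 2, and 5 without the conflicting arrays (FAT2, FAT3, FAT4, PCDH10 and PCDH17). For CELSR1 and CELSR2, called in A549, the difference of effects was 0.26 (95% interval -0.16 to 0.68) and 0.21 (-0.41 to 0.83).

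The lines already differed before LKB1. In controls 18 of 45 members differed between A549 and H2122, 40% against 40.3% of all genes, so the share is that of the background. Higher in A549 were CDH17 (5.37), PCDH10 (4.64), CDH11, the mesenchymal cadherin (4.21), PCDH17 (3.92), PCDH9 (3.90) and FAT4 (3.51). Higher in H2122 were DSG3 (-3.05, A549 minus H2122), PCDH7 (-2.29), FAT2 (-2.25) and PCDH1, a protocadherin of airway epithelium (-1.75).

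Some members told the lines apart at a level well above the dim range and had no LKB1 call. CDH11 lay between 8.16 and 9.17 on every A549 array and between 3.98 and 4.87 on every H2122 array, and its LKB1 effect was 0.09 in each line (adjusted p = 0.877 and 0.903). PCDH9, a protocadherin best known from brain, lay between 7.41 and 8.40 in A549 and between 3.44 and 4.55 in H2122. PCDH1 was the other way round, between 5.84 and 6.34 in A549 and between 7.42 and 8.76 in H2122, with its highest level on pBABE replicate 2. For these 3 genes no array of one line reached the range of the other.

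PCDH7, a protocadherin of the delta group, lay between 4.21 and 4.92 in A549. In H2122 it was 7.15 and 5.76 with pBABE, 7.36, 6.98 and 7.52 with K78I, and 7.77, 7.17 and 7.76 with LKB1. LKB1 replicate 2 overlapped the controls, and pBABE replicate 2 was far below the rest. The difference of 0.69 ± 0.25 against both controls did not pass (adjusted p = 0.123), although PCDH7 was called against pBABE alone.

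The desmocollins, which pair with desmogleins in the desmosome, were not called with LKB1. DSC2, the desmocollin of simple epithelia, was 8.89 and 8.96 with pBABE in H2122, 9.24, 9.36 and 8.99 with K78I, and 9.54, 9.53 and 9.41 with LKB1. All LKB1 arrays were higher, but the difference of 0.43 ± 0.22 did not pass (adjusted p = 0.297). In A549 its highest levels, 8.50 and 9.31, were on the 2 control arrays low in cell cycle genes. DSC3 (6.14 and 6.57) was also highest on those 2 arrays, as CDH17 was. These genes were picked out from their levels, and the share of all genes that do the same was not counted. The part of the cell cycle state in these levels was not tested.

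With LKB1 the gap between lines narrowed for some of these and widened for others. For FAT4 it was 3.51 in controls and 1.23 with LKB1, for PCDH17 3.92 and 2.04, and for PCDH10 4.64 and 2.64. For FAT2 it went from -2.25 to -3.99, and for FAT3 from 0.54 to 3.71. These changes of the gap are the same differences of effect tested above, with the same limit for PCDH17. CDH11 kept its gap, 4.21 in controls and 4.20 with LKB1.

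**Figure D3:**
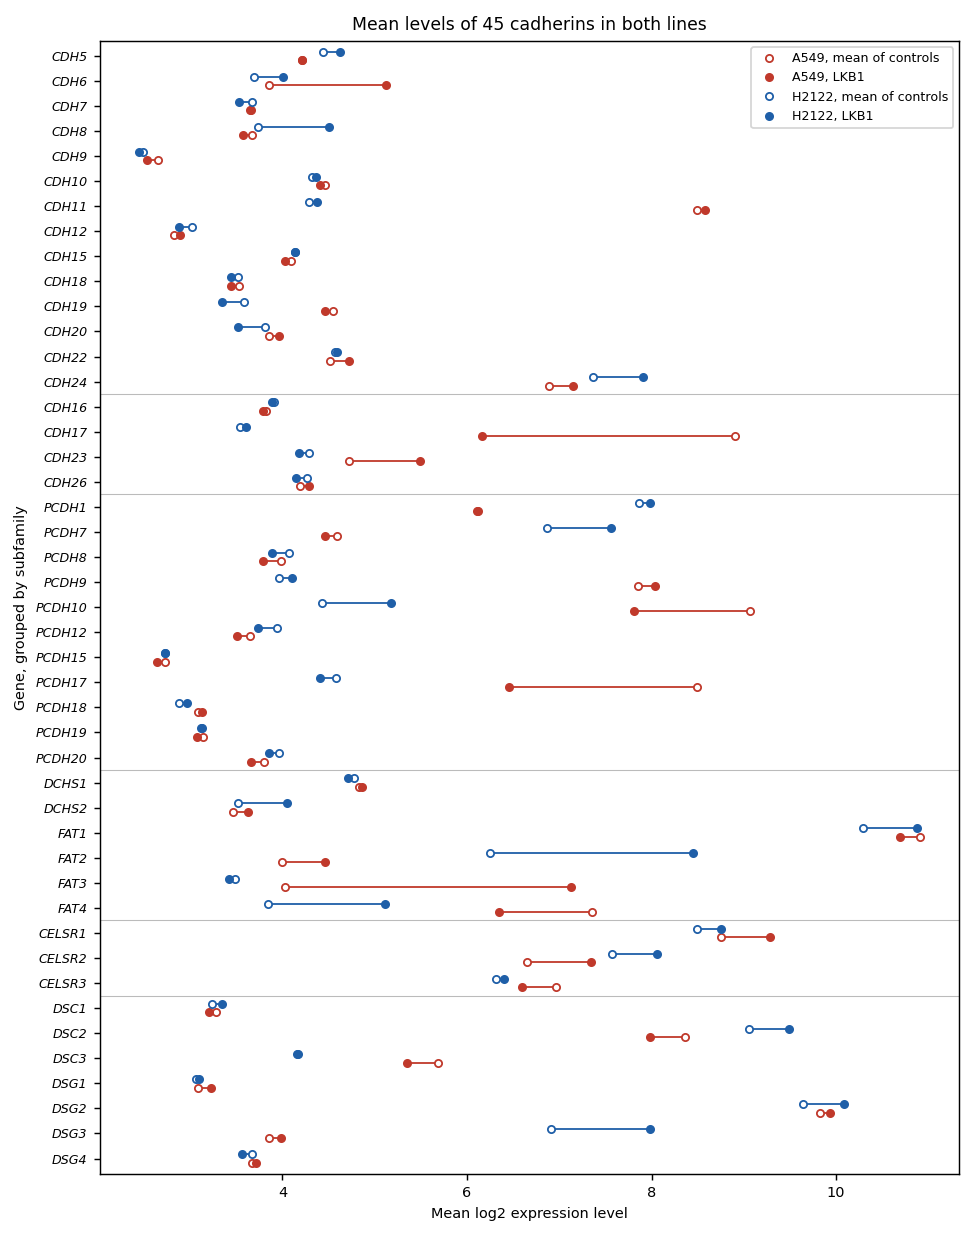
Mean log2 level of each of the 45 members in A549 (red) and H2122 (blue), with open points for the mean of the 2 control groups and filled points for LKB1. Genes are grouped by subfamily, and a short connecting line means a small LKB1 effect. The gap between lines narrows for FAT4, PCDH10 and PCDH17 and widens for FAT2 and FAT3.

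Kinase-dead K78I was compared with the empty vector to see the effect of the protein without its activity. In A549 0 of 45 were called and 0 had an unadjusted limma p under 0.05 (0.0% of all genes called). As 2 of these 6 A549 arrays had STK11 levels against their labels, that comparison does not cleanly set the protein against its absence. Without those 2 arrays the count was also 0. In H2122 0 of 45 were called and 5 had an unadjusted p under 0.05 (0.0% of all genes called). FAT2 was at 1.11 ± 0.22 there (adjusted p = 0.214). STK11, with means of 11.28 with K78I and 6.28 with pBABE in H2122, was not called in this comparison either. The fit uses 1 spread per gene over both lines. For STK11 that spread was wide in A549 (SD 1.93 with K78I and 1.97 with pBABE) and narrow in H2122 (0.03 and 0.08). Its missed call therefore says little about the members. A count of 0 still does not show that K78I left the members unchanged. Without H2122 pBABE replicate 1, 4 members were called, but the pBABE group is then the 1 array with a conflicting label and low cell cycle genes, assumed to vary like the other groups. Against K78I alone, LKB1 called 6 members in A549 (CDH6 and FAT3 higher; CDH17, FAT4, PCDH10 and PCDH17 lower; 5.25% of all genes) and 4 in H2122 (CDH8, DCHS2, FAT2 and FAT4 higher; 3.89% of all genes). Against pBABE alone it called 7 in A549 (5.5% of all genes), those 6 and CDH23. In H2122 it called 8 (5.77% of all genes), which were CDH24, CDH8, DSG2, DSG3, FAT1, FAT2, FAT4 and PCDH7.

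**Figure D4:**
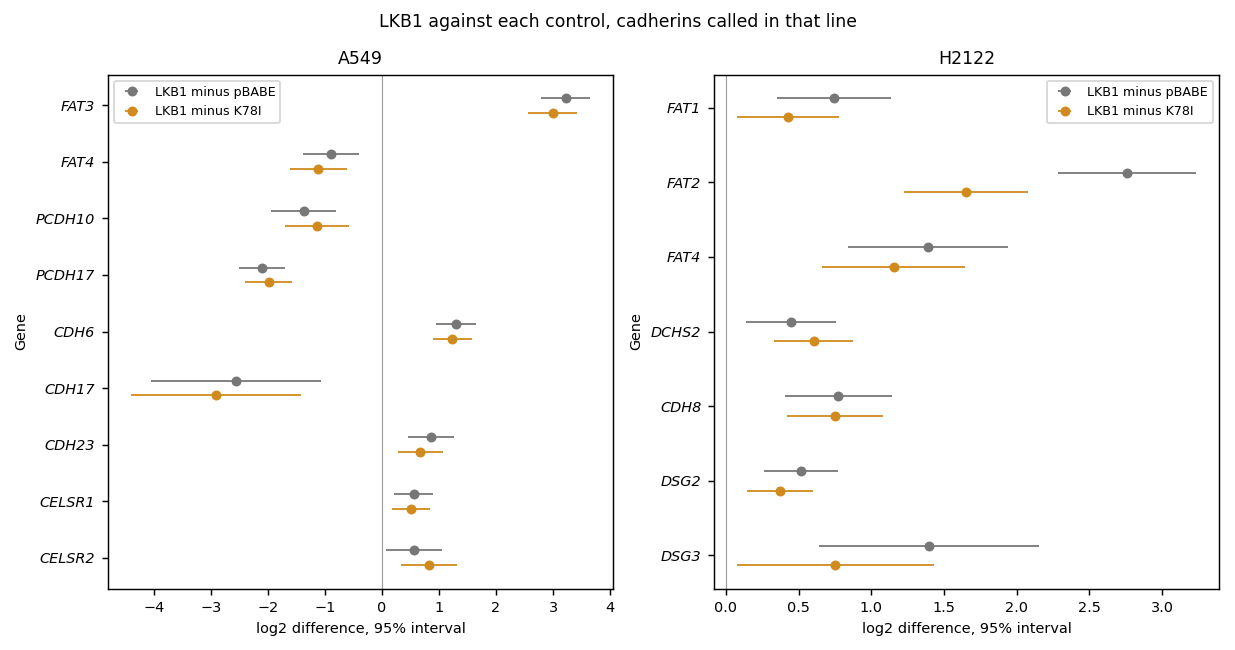
LKB1 effect (log2 difference) of each called member measured against K78I alone and against pBABE alone, by line, with 95% intervals as bars. In H2122, FAT2 reads 1.65 against K78I and 2.76 against pBABE, and FAT3 in A549 lies far above zero with either control.

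The proteins that cadherins work with were taken as a list of 33 genes chosen by function, of which 32 were measured. It held catenins, plakins, plakophilins, planar polarity genes and others such as VCL, PERP, LIX1L, USH1C, USH1G and MYO7A. In A549, 4 of 32 rose and 0 fell (12.5%, against 8.44% of all genes): PRICKLE2 (2.75 ± 0.25, adjusted p = 7.55e-06), PRICKLE1 (1.14 ± 0.32, 0.0368), VCL, which links catenins to actin (0.90 ± 0.15, 0.00177), and CTNNA1, alpha-catenin (0.35 ± 0.08, 0.0129). In H2122, 5 rose and 1 fell (18.8%, against 7.28% of all genes): PRICKLE1 (1.28 ± 0.33, 0.0271), CTNNAL1 (1.09 ± 0.30, 0.0389, or 0.0538 with the replicate block), VCL (0.85 ± 0.16, 0.00377), FZD6 (0.66 ± 0.16, 0.0201), PERP, a desmosomal protein (0.58 ± 0.15, 0.0320), and CTNND2, a delta-catenin, which fell by 0.97 ± 0.24 (0.0222). The median difference was 0.03 in both lines. PRICKLE2 was the 1 gene of the list whose effect differed between the lines (2.32, adjusted p = 0.00211). Leaving out 1 array gave 2 to 5 calls in A549, 2 without LKB1 replicate 1 or 3. In H2122 it gave 1 to 8, 1 without LKB1 replicate 1 or 3, 2 without K78I replicate 3 and 3 without pBABE replicate 2, LKB1 replicate 2 or K78I replicate 2, and without the conflicting arrays 0 were called.

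Leaving out single arrays moved the counts of members. In A549 the count lay between 5 and 10, with 5 without LKB1 replicate 3. In H2122 it lay between 4 and 9, with 4 without LKB1 replicate 1 or 3. FAT3, CDH6, FAT4, PCDH10 and PCDH17 in A549 and FAT2, FAT4 and CDH8 in H2122 stayed called each time 1 array was left out.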

How the data were processed

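Total RNA (130 ng) from 17 samples was hybridised to Affymetrix arrays, 1 array per sample. The deposited values are log2 expression levels that the authors made with Affymetrix Expression Console 1.1 and RMA, as listed in the submitters' processing notes. RMA forces like distributions, so a shift of most genes cannot be seen, and no detection calls were used. A genome build was not used for these values.

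Of 33297 probe sets, 19181 had 1 symbol, 2055 several and 12061 were unnamed here. The brightest probe set per gene was kept (17958 genes). Groups came from titles. Group means over all 17 arrays were fitted with limma 3.58.1 (R 4.3.3, lmFit and eBayes, no covariate) and p-values adjusted over all genes. LKB1 was set against the equal-weight mean of pBABE and K78I. Genes given values are FAT3, DSG3, members called in an LKB1 contrast, members called between controls, and called partners. Members, lists and rules were chosen with earlier results of these data known. The number of arrays limits precision. Alternatives covered labels, arrays, controls, dim genes, centring, probe sets, prior and replicate block.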

Additional observations from a re-analysis of the deposited data

Results flagged for a closer look

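The effect of LKB1 differed between A549 and H2122 for 8 members in a direct test of the difference (limma, adjusted p under 0.05). As A549 minus H2122 on the log2 scale, FAT3 was 3.17 and CDH6 was 0.94. FAT4 was -2.28, PCDH10 was -2.01, PCDH17 was -1.87, FAT2 was -1.74, CDH8 was -0.86 and FAT1 was -0.81. PCDH17 was dim in H2122, where a fall as large as in A549 could not have been seen. Without the 3 arrays with conflicting labels FAT3, FAT4, PCDH17, FAT2 and PCDH10 still passed.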

How the results depend on the processing

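By source name, H2122 pBABE replicate 2 (STK11 6.22) counts as LKB1 and H2122 K78I replicate 3 (STK11 11.26) as pBABE. Grouping the 3 conflicting H2122 arrays by source name gave 0 calls in H2122 (7 as reported), 4 for the mean of both lines (11) and 3 for the difference between lines (8). It turned FAT1 in H2122 to -0.076, PRICKLE1 in H2122 to -0.12 and the FAT2 difference between lines to 0.0025, and in A549 it ended the calls of FAT4 (adjusted p = 0.0911), CELSR2 (0.0781) and PRICKLE1 (0.194). No A549 array was regrouped, so these A549 differences kept their size, and the calls ended through the spread shared with H2122. Without those arrays the counts were 1, 5 and 5. Against K78I alone they were 4, 7 and 5. Without the 3 control arrays low in cell cycle genes H2122 had 11, and after dropping the dimmest 30% of genes, which removes 27 members, the difference between lines had 5. Of 4 partner calls in A549, 2 were left with median centring, 2 when A549 was fitted alone and 2 against K78I. Of 6 in H2122, 0 were left by source name, 0 without the conflicting arrays and 0 against K78I, and there were 10 without the 2 arrays with STK11 against their label. The cause was not tested.

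Leaving out 1 array gave 5 to 10 calls in A549, 4 to 9 in H2122, 8 to 12 for the mean, 5 to 9 for the difference, 0 to 4 for K78I in H2122, 0 to 0 for K78I in A549 and 17 to 20 for controls, with 2 to 5 and 1 to 8 partner calls in A549 and H2122. The labels do not say that replicate numbers pair the arrays. Deviations of same-numbered arrays from their group means correlated from -0.64 to 0.35 in A549 (other pairs -0.52 to 0.64). In H2122 they correlated from 0.064 to 0.42 (other pairs -0.42 to 0.13). In H2122 that is a hint of pairing from the data, not from the design. The 2 H2122 pBABE arrays have exactly opposite deviations, so their correlations mirror each other (0.42 and -0.42 with LKB1 replicate 2) and are not separate evidence. With the replicate block 8 members were called in A549 (CELSR2 lost, adjusted p = 0.0621), 7 in H2122, 10 for the mean (CDH24 lost, adjusted p = 0.0674), 8 for the difference and 18 between controls, with 4 partner calls in A549 and 5 in H2122 (CTNNAL1 lost, adjusted p = 0.0538). Signal near background limits the dim members.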
